A study of Mus musculus with 11 samples.

Results

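Bile acid handling in the distal ileum was followed through 10 genes, chosen by symbol from the count table. They are the uptake transporter Slc10a2, the cytosolic binding protein Fabp6, the exporters Slc51a, Slc51b, Abcc2 and Abcc3, the nuclear receptors Nr1h4 and Nr1i2, and 2 genes read as targets of these receptors, Fgf15 and Cyp3a25. All 10 occur among the 31168 named genes of the table, and all 10 were among the 15911 genes that passed the filter on low counts. RNA came from the last 2 cm of the ileum, and every mouse had been given dextran sodium sulfate, which injures the gut lining. Both groups carried H2-Ab1 fl/fl alleles, in which the gene for the beta chain of I-A, an MHC class II protein, can be deleted by Cre. The 6 WT libraries came from Villin:Cre- mice, and the 5 dIEC libraries from Villin:Cre+ mice, in which the villin promoter places Cre recombinase in the intestinal epithelium. No mice without dextran sodium sulfate and none without floxed alleles were analysed here. The series' design text writes Villin:Cre- for both groups, so the groups follow the genotype given for each sample. Setting dIEC against WT asks what the epithelial loss of this gene does to ileal RNA under this injury. Levels are given as CPM, counts scaled to a library total of 1000000. The mean level of H2-Ab1 itself was 83.1 ± 27.4 CPM over the 6 WT libraries (± gives the SD throughout) and 25.98 ± 9.87 CPM over the 5 dIEC libraries. Its dIEC libraries (16.8 to 39.2 CPM) all lay below its WT libraries (47.5 to 112 CPM). A two-sided exact permutation test gave 0.00433, the smallest p that these group sizes allow.

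As background, bile acids made in the liver are reclaimed almost entirely by enterocytes of the distal ileum. Slc10a2 (also called ASBT) carries them across the brush border with sodium, Fabp6 binds them in the cytosol, and a heterodimer of the Slc51a and Slc51b products (OSTalpha and OSTbeta) passes them to the portal blood. Inside the cell they activate Nr1h4 (FXR), which binds DNA with RXR and switches on Fgf15, a hormone that reaches the liver and restrains bile acid synthesis there. Fabp6, Slc51a and Slc51b are also textbook FXR targets. Nr1i2 (PXR) senses secondary bile acids and foreign compounds and drives Cyp3a enzymes, which hydroxylate such compounds. Abcc2 is an apical and Abcc3 a basolateral conjugate pump.

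The sequence before the transcription start is shown for 4 genes of the uptake, binding and export steps, because these steps form the path of a bile acid through the enterocyte and their values lead the results. RefSeq promoter windows (GRCm38.p6) were used for 8 of the 10 members. The 250 bases before each start were searched on both strands, with up to 2 mismatches, for 4 motifs made of half-sites. The FXR motif is AGGTCA, any 1 base and the reverse complement of AGGTCA, and the HNF1 motif is GTTAAT, any 1 base and the reverse complement of GTTAAT. The PXR direct repeat is AGTTCA, any 3 bases and AGTTCA again, and the PXR everted repeat is TGAACT, any 6 bases and AGGTCA. The HNF4 motif CAAAGTCCA was searched with up to 1 mismatch. Capitals mark matches, positions count from the start, and a line ends where a GENCODE exon begins. The windows lie on the minus strand at chr11:43601563-43601812 for Fabp6, chr8:5105352-5105537 for Slc10a2, chr16:32487880-32488129 for Slc51a and chr9:65422956-65423023 for Slc51b.
Fabp6: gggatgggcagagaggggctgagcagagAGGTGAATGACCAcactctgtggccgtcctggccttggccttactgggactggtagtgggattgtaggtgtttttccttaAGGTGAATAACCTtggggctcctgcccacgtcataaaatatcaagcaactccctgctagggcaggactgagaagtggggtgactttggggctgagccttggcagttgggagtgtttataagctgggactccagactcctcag
Slc10a2: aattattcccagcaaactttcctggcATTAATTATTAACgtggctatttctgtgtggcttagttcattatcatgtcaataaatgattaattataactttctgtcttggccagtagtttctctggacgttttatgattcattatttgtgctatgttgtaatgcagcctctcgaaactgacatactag
Slc51a: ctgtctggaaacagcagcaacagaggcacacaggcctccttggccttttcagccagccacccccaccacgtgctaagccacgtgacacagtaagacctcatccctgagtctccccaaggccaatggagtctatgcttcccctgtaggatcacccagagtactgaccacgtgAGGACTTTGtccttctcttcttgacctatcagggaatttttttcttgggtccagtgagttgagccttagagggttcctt
Slc51b: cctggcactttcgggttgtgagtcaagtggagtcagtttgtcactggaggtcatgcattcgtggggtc
Fabp6 held 2 matches to the FXR inverted repeat, AGGTGAATGACCA at -222 to -210 and AGGTGAATAACCT at -142 to -130, each with 2 mismatches. Of all 32851 RefSeq windows of the same length, 0.959% held such a match, and no other member with a window did. The HNF1 motif had a match in Slc10a2 (ATTAATTATTAAC, 1 mismatch), Nr1h4 (GTTAATCAGTAAA, 2 mismatches) and Abcc2 (GTTAACTATTAAG, 2 mismatches), against 1.24% of all windows. The Nr1h4 window (chr10:89506659-89506908, minus strand) lies inside the GENCODE gene, so it precedes an internal start. The Abcc2 match, at -75 to -63, lies in an annotated GENCODE exon. The HNF4 motif had one in Slc51a (AGGACTTTG on the opposite strand) and Nr1i2 (TGGACTTGG, likewise), against 7.05% of all windows. Neither PXR form (1.84% of all windows for each) occurred in the window of a member, Cyp3a25 included. These are letter matches in a short window and say nothing of binding.

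Library totals ran from 6603965 to 9681698 counts, and without Lars2 the protein-coding genes made up 1510296 to 3215574 of them. The piece was whole tissue, and in such data fewer epithelial cells and less RNA per cell cannot be told apart. General epithelial genes were measured in 15 of 15 cases, at a summed 2790 to 5060 CPM in WT and 3458 to 4621 CPM in dIEC. The log2 fold changes of these 15 genes were all above 0 (median 0.24), as were those of the 25 tested genes of absorptive enterocytes, the cells of the villus that express the bile acid chain (median 0.66). Smooth muscle genes (15 of 15) and fibroblast and matrix genes (14 of 14) had log2 fold changes below 0, with medians of -0.41 and -0.66. Among 8 tested lymphocyte genes 8 were above 0 (median 0.67), and among 11 macrophage and dendritic cell genes 3 were (median -0.046). Inflammation genes, of which 7 of 17 were tested, had a median of 1.23. Genes of the proximal small intestine summed to 89.5 to 165 CPM in WT and 117 to 499.9 CPM in dIEC, and 8 of the 10 tested had log2 fold changes above 0 (median 0.54). In that list Gata4 and Lct had at most 3 and 7 counts in a library, and the liver marker Alb had at most 15. A list of colon genes summed to 437 to 1069 CPM in WT and 566 to 1175 CPM in dIEC. Of its 10 tested genes 8 had log2 fold changes above 0 (median 0.41), and Car1, which was not tested, had at most 26 counts in a library. Hepatocyte genes summed to 6.72 to 46.8 CPM in WT and 7.44 to 37.3 CPM in dIEC, and pancreatic genes to 0.611 to 2.55 CPM over all libraries. The epithelial and smooth muscle scores are used as covariates below, and the epithelial and enterocyte scores as references. The part of the other lists in the members' values was not tested.

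Across the 10 genes, levels in dIEC were mostly higher than in WT, but no gene was called. Of the 10 log2 fold changes 9 lay above 0, against 48.8% of all genes tested, with a median of 0.46 against -0.0071 for all genes. Of the 25 tested absorptive enterocyte genes 25 lay above 0, with a median of 0.66 and 6 at an unadjusted p below 0.05. With edgeR's quasi-likelihood test 0 of the 10 passed an adjusted p of 0.05 (lowest adjusted p = 0.427), and 0.00628% of all genes did, which is the single gene Mt1, a metallothionein that is no member. At an unadjusted p below 0.05 stood 4 of the 10, all higher in dIEC, against 10.7% of all genes in either direction, 4.87% of all genes toward higher values and 5.79% toward lower values. That count fell in several other edgeR fits. It was 0 without dIEC replicate 1 (1262 of 16213 genes). It was 1 with library size alone (2317 of 15911 genes) or the ribosomal share covariate (1003 of 15911). It was also 1 without WT replicate 2 (1109 of 15837 genes), 4 (1045 of 15573) or 7 (1167 of 15755). Where it was 1 in these fits, the gene was Slc51b, higher in dIEC. With the smooth muscle covariate (642 of 15911 genes) the 1 gene was Abcc3, lower in dIEC (log2 fold change -0.32, edgeR unadjusted p = 0.0460). The epithelial covariate gave 2 (603 of 15911 genes), Slc51b higher and Abcc3 lower in dIEC. DESeq2 called 0 of the 10, of which Fgf15 got no adjusted p, against 0.11% of the 10013 genes with an adjusted p. By DESeq2 5 stood at an unadjusted p below 0.05, against 6.19% of the 31146 genes that DESeq2 gave a p, low counts included. No member had groups that did not overlap (0 of 10, against 0.566% of all genes). Among libraries left out singly, only WT replicate 8 changed how many members passed. Without it 2 of the 10 passed edgeR's threshold, Slc10a2 and Slc51a, against 2.02% of all genes, and 6 stood at an unadjusted p below 0.05, against 21% of all genes. In 7 members WT replicate 8 was at least 1.997 times the median of the other WT libraries, reaching 4.77 times in Slc10a2, whereas Fabp6 (1.09 times), Nr1i2 (1.35 times) and Fgf15 (0.0936 times) stood apart from that pattern. The epithelial score, a mean log2 CPM, was 7.96 in WT replicate 8 and 7.12 to 7.50 in the other WT libraries, and the enterocyte score was 7.75 against 5.84 to 6.74. When WT replicate 8 and dIEC replicate 1 were both left out, an alternative chosen after seeing the data, 0 of the 10 passed, and 6 stood at an unadjusted p below 0.05, against 18.4% of all genes. In that fit the log2 fold changes were 1.14 for Slc10a2, 0.77 for Slc51a and 1.01 for Slc51b (edgeR adjusted p = 0.0852, 0.0569 and 0.0872).

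**Figure D1:**
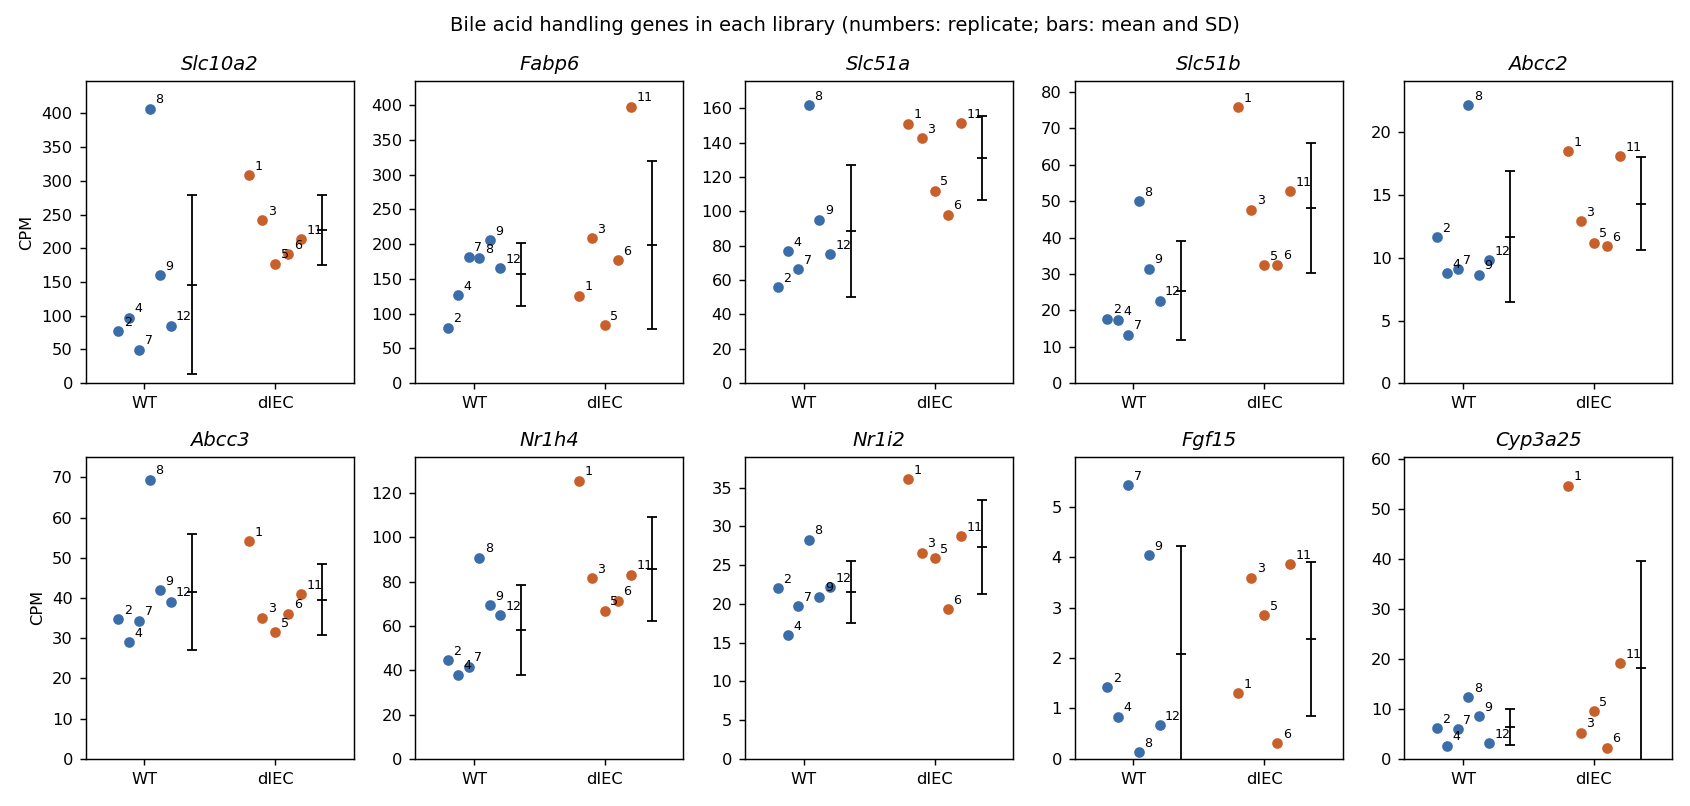
CPM of the 10 genes (y axes from 0, each gene with its own scale) in the 6 WT and 5 dIEC libraries. Points are libraries numbered by replicate, and bars give the mean and SD. WT replicate 8 tops the WT group in 8 of the 10 panels, among them Slc10a2 at 407 CPM, and dIEC replicate 1 is the highest of all 11 libraries in Slc51b, Nr1h4, Nr1i2 and Cyp3a25.

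At the uptake step, 1 WT library set the spread. Slc10a2 (chromosome 8, 5083219 to 5105351, minus strand, GRCm38) had a lowest value of 49.6, a median of 91.3 and a highest value of 407 CPM in WT. In dIEC it had 308, 242, 177, 191 and 214 CPM in replicates 1, 3, 5, 6 and 11. All 5 dIEC libraries exceeded 5 of the 6 WT libraries, whose second highest value was 160 CPM, and all 5 lay below WT replicate 8. WT averaged 146 ± 133 CPM and dIEC 227 ± 51.8 CPM, so that the coefficient of variation was 91.1% in WT and 22.9% in dIEC. The log2 fold change was 0.63 ± 0.47 (SE; edgeR adjusted p = 0.610). Without WT replicate 8 the WT mean was 93.8 ± 40.9 CPM and the log2 fold change 1.27 ± 0.27 (adjusted p = 0.0421). With the epithelial content score as a covariate it was 0.24 ± 0.29, and with the smooth muscle score 0.34 ± 0.47.

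Fabp6 (chromosome 11, 43596049 to 43601540, minus strand), whose promoter letters carried the FXR repeats, overlapped widely between the groups. It had 80.01, 173 and 206 CPM as the lowest, median and highest WT values, and 126, 209, 83.7, 177 and 398 CPM in dIEC replicates 1, 3, 5, 6 and 11. Of the dIEC libraries 2 of 5 exceeded the highest WT value, replicate 3 narrowly and replicate 11 by far. Means were 157 ± 45.7 and 199 ± 121 CPM, with a log2 fold change of 0.35 ± 0.35 (adjusted p = 0.720), and of -0.070 without dIEC replicate 11 and -0.025 with the epithelial content score as a covariate. Per kilobase of annotated exon, Fabp6 was the most abundant of the 10 in both groups, at 327 ± 95.4 CPM per kilobase in WT and 415 ± 253 in dIEC. Slc51b (35.9 ± 19.1 in WT), Slc10a2 (35.2 ± 32.0), Slc51a (27.7 ± 11.97) and Nr1h4 (25.3 ± 8.91 CPM per kilobase) followed and did not differ from one another beyond their spread. Nr1i2 (8.43 ± 1.57) and Abcc3 (7.27 ± 2.53) came next, then Cyp3a25 (3.10 ± 1.74), Abcc2 (1.37 ± 0.615) and Fgf15 (0.683 ± 0.699 CPM per kilobase).

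The Fabp6 to Slc10a2 count ratio, which does not depend on scaling, ran over a wide range within WT, from 0.443 in replicate 8 to 3.67 in replicate 7. In dIEC it ran from 0.408 in replicate 1 to 1.86 in replicate 11. Its mean was 1.61 ± 1.12 in WT and 0.907 ± 0.582 in dIEC, and the log2 difference of -0.77 did not exceed the spread between libraries (p = 0.208, exact permutation test). Over the 11 libraries the log2 CPM of both genes had a Pearson r of 0.253 (permutation p = 0.452) and a Spearman rho of 0.264 (permutation p = 0.435).

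The basolateral exporter chains Slc51a and Slc51b moved together from library to library. Slc51a (chromosome 16, 32474504 to 32487879, minus strand) had 55.8, 75.9 and 162 CPM as the lowest, median and highest WT values. In dIEC replicates 1, 3, 5, 6 and 11 it had 151, 142, 112, 98.1 and 151 CPM. Every dIEC library lay above the second highest WT library, at 95.1 CPM, and below WT replicate 8. Slc51b (chromosome 9, 65412714 to 65422955, minus strand) had 13.3, 20.2 and 50.04 CPM as lowest, median and highest in WT and 75.9, 47.6, 32.4, 32.6 and 52.7 CPM in the dIEC libraries in the same order. Again every dIEC library exceeded the second highest WT value, 31.5 CPM, and 2 of 5 exceeded WT replicate 8. Mean levels were 88.5 ± 38.3 and 131 ± 24.4 CPM for Slc51a, with a log2 fold change of 0.57 ± 0.24 (adjusted p = 0.442, unadjusted p = 0.0322). For Slc51b they were 25.4 ± 13.6 and 48.2 ± 17.9 CPM, with a log2 fold change of 0.93 ± 0.34 (adjusted p = 0.427, unadjusted p = 0.0180). Leaving out WT replicate 8 gave 0.83 ± 0.15 for Slc51a (adjusted p = 0.0327) and 1.23 ± 0.29 for Slc51b (adjusted p = 0.0536). With the epithelial content score as a covariate the values were 0.20 ± 0.12 and 0.48 ± 0.22 (adjusted p = 0.9999 for both), and with the smooth muscle score 0.35 ± 0.21 and 0.51 ± 0.26.

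Pearson's r between the log2 CPM of Slc51a and Slc51b was 0.937 over the 11 libraries (permutation p = 0.0001) and Spearman's rho was 0.909 (p = 0.00035). Adjusted over the 6 pairs of members compared, these p-values were 0.0006 and 0.0021 (permutation, Benjamini-Hochberg). Without the 2 libraries farthest from the median of Slc51a, WT replicates 2 and 8, r was 0.958, after the group means were subtracted it was 0.894, and within the 6 WT libraries it was 0.912. All points share the depth and the scaling of their library, and with library size alone r was 0.889. They also share its cell make-up, with an enterocyte score of 7.75 in WT replicate 8 and 5.84 to 6.74 in the other WT libraries. No pair of genes outside these 6 was compared, so whether other enterocyte genes follow Slc51a as closely was not tested. The Slc51b to Slc51a count ratio was 0.282 ± 0.0540 in WT (0.202 to 0.331) and 0.362 ± 0.0818 in dIEC (0.290 to 0.503). The log2 difference of 0.36 did not pass (exact permutation p = 0.0736), and it was 0.43 without dIEC replicate 5 (exact permutation p = 0.00952) and 0.23 without dIEC replicate 1, which had the highest ratio (exact permutation p = 0.162).

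Both chains overlap a gene on the opposite strand, and the strand setting of the counting is not given in the sources used here. Slc51a shares 567 exonic bases with Pcyt1a, an enzyme gene of phosphatidylcholine synthesis, and Slc51b shares 91 with Rasl12, a small GTPase gene. Rasl12 had 9.36, 9.20, 9.65, 21.8, 15.7 and 11.02 CPM in WT replicates 2, 4, 7, 8, 9 and 12 and 40.2, 25.04, 20.8, 14.6 and 21.0 CPM in dIEC replicates 1, 3, 5, 6 and 11. Like Slc51b, it was highest of all in dIEC replicate 1 and highest within WT in replicate 8. Pcyt1a was between 24.2 and 56.0 CPM, with its highest values in the same 2 libraries. How many reads of the overlaps were counted for each gene was not tested.

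The pumps Abcc2 and Abcc3 had lower levels per kilobase than the Slc51 chains and log2 fold changes nearer to 0. Abcc2 (chromosome 19, 43782192 to 43840740, plus strand) had 8.64, 9.45 and 22.2 CPM as lowest, median and highest in WT and 18.5, 12.9, 11.2, 10.9 and 18.1 CPM in dIEC replicates 1, 3, 5, 6 and 11. All 5 dIEC libraries exceeded the WT median and none exceeded WT replicate 8. Its log2 fold change was 0.31 ± 0.25 (edgeR adjusted p = 0.647), 0.59 ± 0.17 without WT replicate 8 (adjusted p = 0.0674) and -0.031 ± 0.18 with the epithelial covariate. Abcc3 (chromosome 11, 94343295 to 94392997, minus strand) was the single member with a value below 0. It had 29.1, 36.9 and 69.4 CPM as lowest, median and highest in WT and 54.2, 35.1, 31.6, 36.1 and 40.9 CPM in dIEC, where 2 of 5 libraries exceeded the WT median. The log2 fold change of -0.064 ± 0.21 (adjusted p = 0.934) became 0.14 ± 0.14 without WT replicate 8. It was -0.34 ± 0.14 with the epithelial covariate (edgeR adjusted p = 0.9999, unadjusted p = 0.0231). With the smooth muscle covariate it was -0.32 ± 0.15 (edgeR adjusted p = 0.996, unadjusted p = 0.0460). Of the 22 alternative fits, 3 gave Abcc3 a value above 0.

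**Figure D2:**
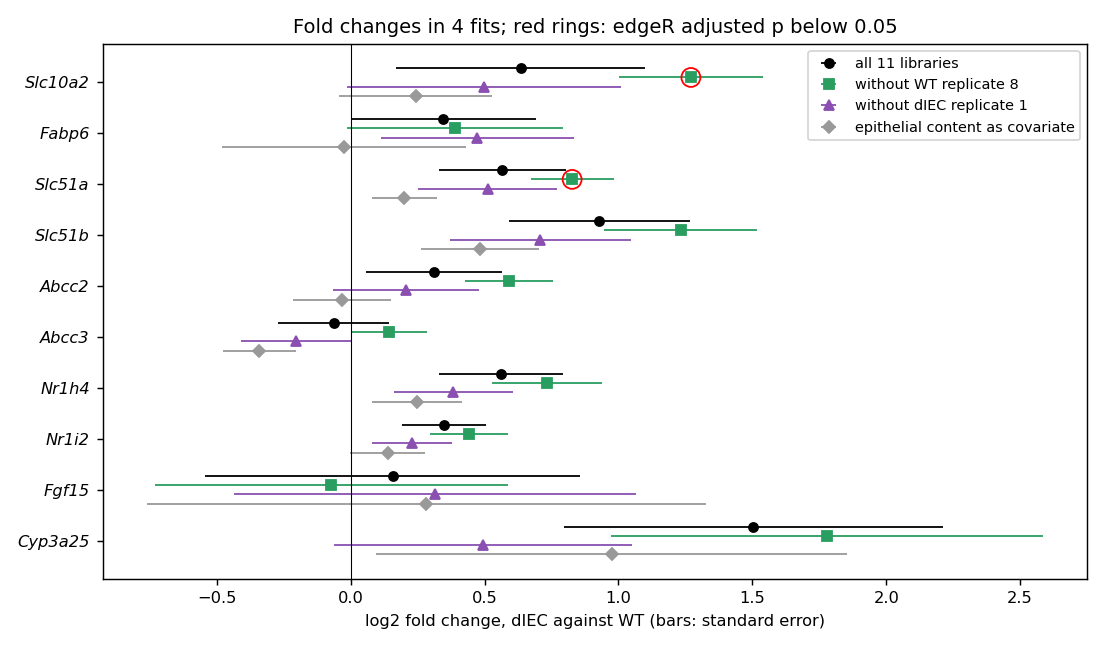
Log2 fold change of dIEC against WT (x axis) for the 10 genes (y axis) in 4 edgeR fits, with bars of 1 standard error. Red rings mark an adjusted p below 0.05, which only Slc10a2 (1.27) and Slc51a (0.83) have, both in the fit without WT replicate 8.

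Of the nuclear receptors, Nr1h4 (chromosome 10, 89454234 to 89533585, minus strand) had 37.9, 54.7 and 90.8 CPM as lowest, median and highest in WT. In dIEC replicates 1, 3, 5, 6 and 11 it had 126, 81.6, 67.0, 71.4 and 83.3 CPM. The dIEC libraries all exceeded the WT median, 4 of 5 exceeded the second highest WT value of 69.4 CPM, and replicate 1 alone exceeded WT replicate 8. Means were 58.2 ± 20.5 and 85.8 ± 23.3 CPM with a log2 fold change of 0.56 ± 0.23 (adjusted p = 0.439, unadjusted p = 0.0296). Nr1i2 (chromosome 16, 38248323 to 38294824, minus strand) had the lowest coefficient of variation of the 10 in WT, 18.6%, and one of 22.1% in dIEC. It had 15.99, 21.5 and 28.3 CPM as lowest, median and highest in WT and 36.1, 26.6, 25.9, 19.3 and 28.7 CPM in dIEC. Its means of 21.5 ± 4.01 and 27.3 ± 6.05 CPM gave a log2 fold change of 0.35 ± 0.16 (adjusted p = 0.453, unadjusted p = 0.0425). Without dIEC replicate 1 the values were 0.38 ± 0.22 for Nr1h4 (adjusted p = 0.668) and 0.23 ± 0.15 for Nr1i2 (adjusted p = 0.689). With the epithelial covariate they were 0.25 ± 0.17 and 0.14 ± 0.14, and with the smooth muscle covariate 0.25 ± 0.15 and 0.13 ± 0.12.

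Fgf15, the hormone by which the ileum signals to the liver, was barely detected. The gene (chromosome 7, 144896531 to 144900953, plus strand) had 10, 8, 49, 1, 43 and 5 counts in WT replicates 2, 4, 7, 8, 9 and 12 and 9, 32, 14, 2 and 28 counts in dIEC replicates 1, 3, 5, 6 and 11. Both groups held libraries with 28 or more counts beside libraries with 1 or 2, so the groups overlapped completely. The library with a single Fgf15 count, WT replicate 8, was the one with the highest Slc10a2 and Slc51a of all 11. The means of 2.09 ± 2.14 and 2.39 ± 1.53 CPM gave a log2 fold change of 0.16 ± 0.70 (adjusted p = 0.952), which was -0.062 with library size as the only scaling, and at these counts a difference of that size was not detectable. The Fgf15 to Nr1h4 count ratio averaged 0.0435 ± 0.0475 over the WT and 0.0305 ± 0.0204 over the dIEC libraries (p = 0.970, exact permutation test). No correlation of Fgf15 was detectable with its receptor Nr1h4 (r = -0.149, permutation p = 0.659), with the other target Slc51b (r = -0.114, permutation p = 0.734) or with Fabp6 (r = 0.212, permutation p = 0.535). The matching Spearman values were -0.191, -0.209 and 0.418 (permutation p = 0.577, 0.541 and 0.203), and adjusted over the 6 pairs each Pearson p was 0.734 while the Spearman p-values were 0.577, 0.577 and 0.405. Without WT replicates 7 and 8, the 2 libraries farthest from the Fgf15 median, r was 0.383 with Slc51b and 0.308 with Fabp6, and with Nr1h4 it was -0.316 without WT replicate 4 and dIEC replicate 1. Fgf15 shares 761 exonic bases with the antisense gene Gm26793, which had 0 to 18 counts, the most in WT replicate 7, where Fgf15 was highest too.

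Cyp3a25 (chromosome 5, 145977194 to 146009618, minus strand), a cytochrome P450 of the Cyp3a family, had the largest fold change of the 10 and the most uneven dIEC group. It had 2.61, 6.04 and 12.3 CPM as lowest, median and highest in WT and 54.8, 5.28, 9.57, 2.22 and 19.2 CPM in dIEC replicates 1, 3, 5, 6 and 11. Replicates 1 and 11 exceeded every WT library, and replicate 6 was below all of them. Means of 6.45 ± 3.62 and 18.2 ± 21.4 CPM gave a log2 fold change of 1.504 ± 0.71 (adjusted p = 0.471), and without dIEC replicate 1 it was 0.49 ± 0.56 (adjusted p = 0.800). It was 0.98 ± 0.88 with the epithelial covariate and 0.073 ± 0.48 with the smooth muscle covariate. It followed Nr1i2 over the libraries, with r = 0.866 (permutation p = 0.00065, adjusted 0.00195) and rho = 0.809 (permutation p = 0.00412, adjusted 0.0124). Without dIEC replicate 1 and WT replicate 4, the 2 libraries farthest from the Nr1i2 median, r was 0.719, with group means subtracted 0.858 and with library size alone 0.737. Within the 6 WT libraries r was 0.750. These points too share the cell make-up of their library, and whether other genes follow Nr1i2 as closely was not tested. Cyp3a25 shares 26.8% of its 50-base transcript windows with Cyp3a57 and Cyp3a59, so reads may be split between them. Cyp3a59 had 0 to 22 counts, the most again in dIEC replicate 1.

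**Figure D3:**
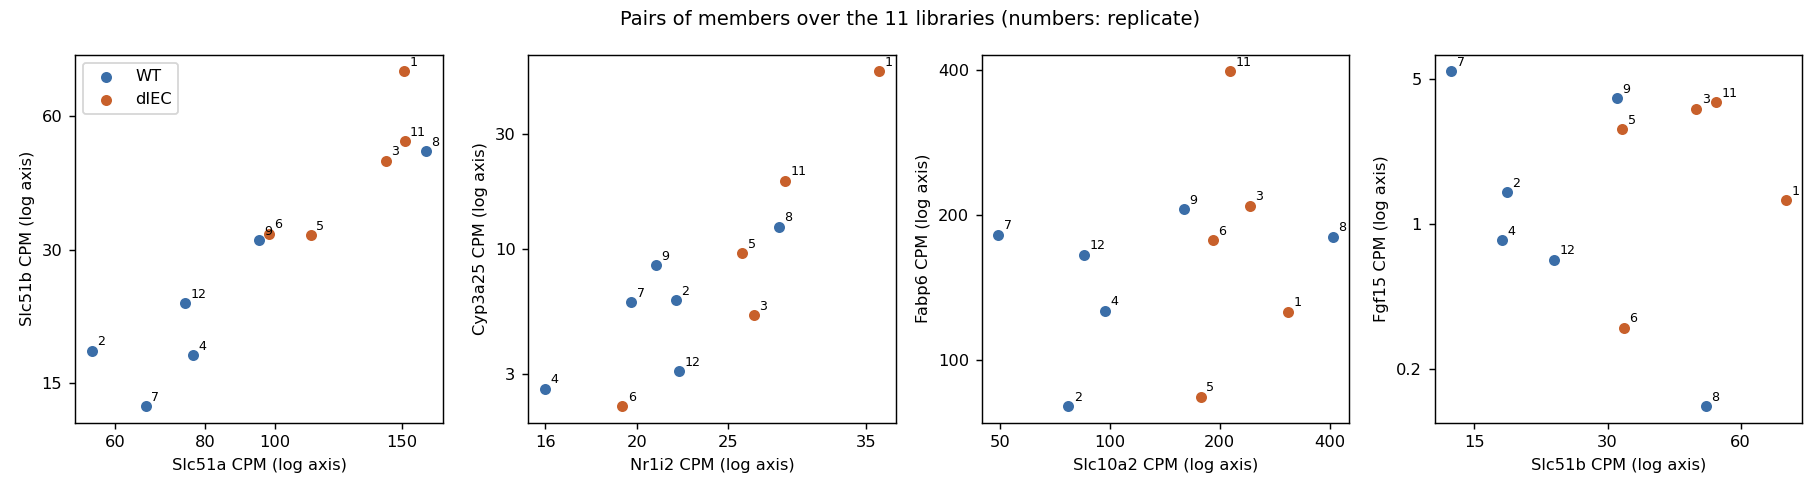
CPM of 4 pairs of genes over the 11 libraries, both axes on a log scale, with WT in blue and dIEC in orange and libraries numbered by replicate. Slc51a with Slc51b (r = 0.937) and Nr1i2 with Cyp3a25 (r = 0.866) run along a line, while Slc10a2 with Fabp6 (r = 0.253) and Slc51b with Fgf15 (r = -0.114) do not.

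Because the 15 epithelial genes, none of them called, all had log2 fold changes above 0, each member was also set against them within its library, as its log2 CPM minus the mean log2 CPM of the 15 epithelial genes. On this scale 2 of the 10 members had an unadjusted p below 0.05. Slc51a stood at -1.02 ± 0.27 in WT and -0.65 ± 0.16 in dIEC, a difference of 0.36, and Slc51b at -2.86 ± 0.40 and -2.14 ± 0.44, a difference of 0.72 (exact permutation p = 0.0216 for each, not adjusted for the 10 members tested). The remaining 8 members had p-values of 0.0563 or more. Among them were Slc10a2 with a difference of 0.71 (exact permutation p = 0.0952), Nr1h4 with 0.32 (p = 0.0952, exact permutation) and Abcc3 with -0.30 (exact permutation p = 0.0563). For Fabp6 (-0.060), Nr1i2 (0.063) and Abcc2 (0.069) the difference was small beside the spread of the libraries. Without WT replicate 8 the difference of Slc10a2 was 0.96 (exact permutation p = 0.00794), and without dIEC replicate 1 that of Abcc3 was -0.42 (exact permutation p = 0.00952).

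Set against the 25 absorptive enterocyte genes in place of the general epithelial ones, the differences of the exporter chains did not exceed the spread between libraries. Slc51a then had a difference of -0.18 and Slc51b of 0.18 (exact permutation p = 0.312 and 0.333). That of Slc10a2, with all libraries, was 0.17 (exact permutation p = 0.532). Abcc3 lay lower in dIEC on this scale, at -1.12 ± 0.35 in WT and -1.96 ± 0.48 in dIEC, a difference of -0.84 (exact permutation p = 0.0173, likewise not adjusted). Differences below 0 were also found for Fabp6 (-0.60), Nr1i2 (-0.48) and Abcc2 (-0.47), at exact permutation p-values of 0.247, 0.126 and 0.0736.

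**Figure D4:**
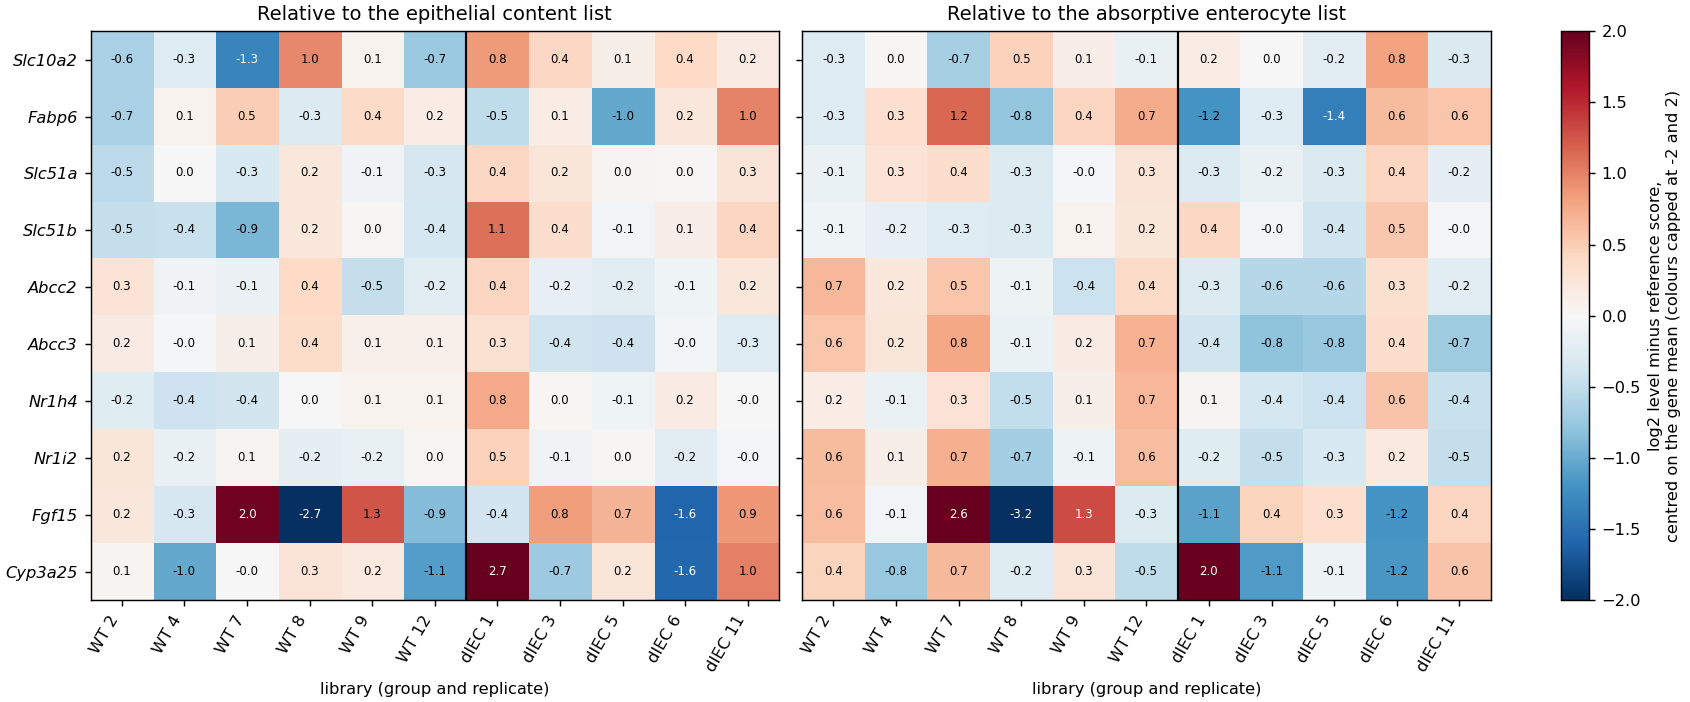
Log2 CPM of each gene minus the score of a reference list in the same library, centred on the mean of the gene over all libraries, for 2 reference lists. Rows are genes, columns are libraries with WT left of the black line, red is higher and blue lower, and colours stop at -2 and 2. Slc51a and Slc51b are mostly red in dIEC against epithelial content (differences of 0.36 and 0.72) and mixed against enterocyte genes, where Abcc3 is mostly blue (-0.84).

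The wider bile acid pathway showed no common direction. Of 37 further genes of bile acid transport, signalling and metabolism, 25 were tested, 13 had log2 fold changes above 0 and 12 below, with a median of 0.025, and 0 passed edgeR's adjusted threshold (0.00628% of all genes). At an unadjusted p below 0.05 stood 2 higher genes and 1 lower one. Malrd1, the mouse Diet1 gene, which influences Fgf15 production by enterocytes, averaged 143 ± 39.9 CPM over the WT and 199 ± 53.8 CPM over the dIEC libraries (log2 fold change 0.48 ± 0.21). Cyp27a1, a sterol hydroxylase of the alternative synthesis route, had 7.05 ± 0.815 and 10.8 ± 5.46 CPM, with 20.2 CPM in dIEC replicate 1. Enpp7, the intestinal alkaline sphingomyelinase, had 1.68 ± 1.14 and 4.09 ± 3.12 CPM, and the glucuronosyltransferase Ugt2b5 had 2.39 ± 0.247 and 1.56 ± 0.529 CPM. The abundant Fabp2, the fatty acid binding protein of the whole small intestine, had 101 ± 80.1 and 123 ± 59.3 CPM, and the efflux pump Abcb1a 108 ± 56.5 and 118 ± 31.4 CPM. Both were highest in WT replicate 8, at 258 and 217 CPM. Counts of Gpbar1, the bile acid receptor at the cell surface, and of Klb, the co-receptor for Fgf15, were at most 5 and 12 in a library, below the filter, and the liver exporter Abcb11 had at most 2.

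No partner of FXR or PXR and no transcription factor of enterocytes was called. Of 28 such genes 25 were tested, with 18 above 0, a range of log2 fold changes from -0.21 to 0.46, a median of 0.055 and 0 past the threshold. Hnf4a, a main factor of enterocyte genes, averaged 253 ± 66.5 CPM over the WT and 288 ± 31.5 CPM over the dIEC libraries. The corepressor Ncor1 had 152 ± 14.2 and 150 ± 9.36 CPM, and the coactivator Ncoa1 33.1 ± 5.78 and 38.9 ± 4.94 CPM. Gata5, a GATA factor of the gut, had 20.6 ± 4.25 and 26.01 ± 3.14 CPM, and Cdx2, which sets intestinal identity, had 39.1 ± 7.48 and 47.4 ± 7.80 CPM. Maf, a leucine zipper factor, had 102 ± 50.4 and 141 ± 29.97 CPM, and without WT replicate 8 its log2 fold change of 0.77 ± 0.15 passed (edgeR adjusted p = 0.0350).

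Genes that PXR is known to drive, together with other Cyp3a genes, had 10 values above 0 and 6 below among 16 tested of 28, with a median of 0.16 and 0 past the threshold. Cyp3a13, the other Cyp3a gene tested, was, like Cyp3a25, highest in dIEC replicate 1. Its WT mean was 38.4 ± 23.0 CPM and its dIEC mean 93.2 ± 82.1 CPM, with 238 CPM in dIEC replicate 1 and 35.6 to 75.0 CPM in the other 4 dIEC libraries (log2 fold change 1.28 ± 0.50, adjusted p = 0.434). The carboxylesterases Ces2a and Ces2c had 14.6 ± 4.53 and 35.3 ± 13.3 CPM in WT and 21.8 ± 8.77 and 44.7 ± 15.3 CPM in dIEC. The sulfotransferase Sult1d1 had 26.9 ± 10.6 and 41.2 ± 17.7 CPM, and the cytochrome P450 Cyp2c65, one of the genes with values below 0, had 5.44 ± 1.76 and 3.59 ± 1.02 CPM. Cyp3a11, the main hepatic Cyp3a enzyme of the mouse, had at most 5 counts in a library and was not tested.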

How the data were processed

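The authors deposited 1 table of raw counts, whole numbers that its values show to be unscaled, with a row for each gene. Per the labels' protocols, Trizol extracts were purified with a Direct-zol kit and made into directional NEBNext Ultra libraries. TopHat2 and mm10 are named per the submitters' processing notes. Counter, strand setting and annotation: not given in the sources used here. A row naming no gene (0.00778 to 0.0147% of the counts of a library) was left out. Coordinates and exon lengths came from GENCODE vM21 (GRCm38), which holds 99.2% of the symbols.

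The filterByExpr function of edgeR 4.0.16 (R 4.3.3) chose the genes to test, TMM factors scaled them, and dIEC was compared with WT by the robust quasi-likelihood F test, with Benjamini-Hochberg adjustment over 15911 genes and a threshold of 0.05. Standard errors were derived from the log2 fold change and the F statistic. CPM use TMM-scaled library totals, and log2 CPM add a prior count of 2. Count ratios add 0.5 to each count. Exact permutation tests were two-sided over all 462 splits, and correlations used 100000 permutations. DESeq2 1.42.0 was an alternative. In counts simulated for dIEC against WT over 15911 genes, the test found 80 of the 100 genes given a 2-fold change and 98 of the 100 given a 4-fold change, and made 7 false calls. Each gene was simulated independently, with no shift shared by the genes of a library. These numbers therefore do not measure what the test could find among the members.

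Replicate numbers are those in the sample titles. The design text gives 6 and 5 mice, so each library was taken as 1 mouse, and a p-value measures how these libraries spread, since cage and litter are not given. All library pairs within a group differed by more than counting noise (chi-square over its degrees of freedom, 9.24 to 62.4). The 10 genes, the other lists and the tests were chosen with earlier results of these data known. Of the 3 other pathway lists, the text names the genes past the threshold, the 4 with the lowest p and the 3 with the highest CPM. Mt1, single marker genes and genes that overlap a member or share sequence with it were named after their values were seen.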

Additional observations from a re-analysis of the deposited data

Results flagged for a closer look

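In 14 cases the highest library of a group stood farther from the rest than Dixon's 95% criterion allows, among 60 groups of values examined. By chance about 1 in 20 groups meets it, and genes of one library are not independent of each other.

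In WT replicate 8 this held for 10 genes. With the range of the remaining WT libraries in brackets, Slc10a2 had 407 CPM (49.6 to 160), Slc51a 162 (55.8 to 95.1), Abcc2 22.2 (8.64 to 11.6) and Abcc3 69.4 (29.1 to 42.0). Among the other pathway genes, Abcb1a had 217 CPM, Fabp2 258, Maf 203, Ncor1 179, Cyp3a13 83.1 and Sult1d1 46.9. The enterocyte score, a mean log2 CPM, was 7.75 in that library and 5.84 to 6.74 in the remaining 5. Its part in these values was not tested.

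In dIEC replicate 1 it held for Nr1h4, at 126 CPM against 67.0 to 83.3 in the other dIEC libraries, for Cyp27a1, at 20.2 against 6.17 to 9.77, and for Cyp3a13, at 238 against 35.6 to 75.0. The Slc51b to Slc51a count ratio of dIEC replicate 1, 0.503 against 0.290 to 0.349, was the remaining case.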

How the results depend on the processing

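No paired analysis was possible because the groups share no replicate number. With library size as the only scaling, the median log2 fold change of all genes moved from -0.0071 to -0.22. Genes passing edgeR's threshold numbered 1, against 2 with library size alone, 2 with a ribosomal share covariate, 0 with an epithelial content covariate (603 at an unadjusted p below 0.05), 11 by DESeq2, and 1 to 319 when each library was left out in turn (319 without WT replicate 8). Without both WT replicate 8 and dIEC replicate 1, chosen after seeing the data, 7 passed. Members passing numbered 0 to 2 when each library was left out. Slc10a2, Slc51a, Slc51b, Nr1h4, Nr1i2 and Cyp3a25 had log2 fold changes above 0 in all 22 alternatives, Cyp3a25 from 0.073 (smooth muscle covariate) to 1.79. The cause of the changes was not tested.

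Relative to epithelial content, 2 members passed the exact permutation test, against 1 with enterocyte genes as reference and 2 to 3 when each library was left out. The log2 difference of the Slc51b to Slc51a ratio ran from 0.23 to 0.43 when each library was left out, and that of Fgf15 to Nr1h4 from -0.72 to 0.46, changing sign.

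Other signs changed too. With the epithelial covariate this held for Abcb1a (-0.20), Abcc2 (-0.031), Ces2c (-0.077), Fabp2 (-0.31), Fabp6 (-0.025) and Hnf4a (-0.049). Library size alone gave Abcb1a -0.0063, Fgf15 -0.062 and a Nr1h4 to Fgf15 correlation of 0.035, and a smooth muscle covariate gave Abcb1a -0.15. Enterocyte genes as reference turned Abcc2 (-0.47), Fgf15 (-0.39), Nr1h4 (-0.22), Nr1i2 (-0.48) and Slc51a (-0.18). Leaving out both WT replicate 8 and dIEC replicate 1 gave Abcc3 0.0065 and Ncor1 0.062, and moved Fabp2 from 0.29 to 0.87 with its sign kept. When each library was left out in turn, log2 fold changes ran from -0.029 to 0.45 for Abcb1a, -0.20 to 0.14 for Abcc3, -0.0042 to 0.82 for Fabp2, -0.070 to 0.54 for Fabp6, -0.080 to 0.68 for Fgf15 and -0.044 to 0.031 for Ncor1. Relative to epithelial content, differences ran from -0.029 to 0.16 for Abcc2, -0.32 to 0.19 for Fabp6, -0.37 to 0.57 for Fgf15 and -0.042 to 0.12 for Nr1i2.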
